A study of Mus musculus with 9 samples.

Results

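A set of 10 macrophage genes was followed in whole mouse liver, chosen by gene symbol from the deposited count table as markers of resident Kupffer cells or of macrophages that gather in tumors. These were 10 of the 55401 genes in the table, and all 10 passed the filter on low counts. *Trem2* and *Gpnmb* passed it only through livers with tumors, with at most 9 and 4 counts in a healthy library. *Clec4f*, *Timd4*, *Vsig4*, *Marco* and *Cd5l* mark resident Kupffer cells, *Adgre1*, *Cd68* and *Lyz2* mark macrophages or myeloid cells in general, and *Trem2* and *Gpnmb* mark lipid-associated macrophages. In livers with untreated hepatocellular carcinoma (HCC), *Trem2*, *Gpnmb*, *Lyz2* and *Cd68* were higher than in healthy livers, and *Timd4* was lower. The *Timd4* call was lost when libraries were scaled by their totals alone, and when replicate numbers were fitted as a block. With miR-22 treatment no gene of the 10 passed both the p-value and the fold threshold against untreated HCC with edgeR, and DESeq2 called *Gpnmb* higher.

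Kupffer cells are the macrophages that line the liver sinusoids, where they clear particles, bacteria and worn red cells from portal blood. They are seeded before birth and largely renew themselves, and a resident cell carries receptors such as CLEC4F and TIMD4 that a newly arrived monocyte lacks. When resident cells are lost, or when tissue is injured, fatty or malignant, monocytes enter and become macrophages that can acquire TREM2, GPNMB and lysosomal genes, a state named lipid-associated after the lipid-laden cells in which it was described.

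RNA sequencing covered 9 livers of female mice in 3 groups of 3. Healthy livers (replicates 1, 2 and 3) came from wild-type mice that received nothing, and no age or time point is given for them. Untreated HCC livers (replicates 2, 3 and 4) came from mice given oncogene plasmids by hydrodynamic tail vein injection at 6 weeks of age and an AAV8 blank control vector 1 week later. miR-22-treated HCC livers (replicates 2, 3 and 4) came from mice given the same plasmids and AAV8-miR-22 at the same time. HCC livers were collected 5 weeks after the oncogenes, which is 4 weeks after the vector. The plasmids used in this model carried myristoylated AKT (pT3-EF1α-HA-myr-AKT), mutant Nras (pT/Caggs-Nras-v12) and the sleeping beauty transposase (pCMV-SB11), so tumors arose from hepatocytes that took up plasmid rather than from a germline change. The labelled protocol also lists a β-catenin plasmid (pT3-EF1α-N90-β-catenin), which the study used in another model. The vector drove miR-22 from a CMV promoter, which is active in many cell types. All mice carry the genotype label WT. The growth protocol and the study's methods name the strain FVB/N, also for the healthy livers, while the sample label names C57BL/6. Healthy livers differ from HCC livers in oncogenes, injection, vector and possibly age, so these cannot be told apart in a comparison with healthy livers.

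Libraries held 16664659 to 23908392 counts. *Akt1*, whose row can also take reads from the injected transgene, had 1638 to 1885 counts in the healthy group. It had 31323 to 37358 counts in livers of the untreated HCC group and 10529 to 23214 counts in the treated group, so all libraries labelled HCC stood above all labelled healthy. The mature miRNA is not measured by these libraries, and the *Mir22* row held 0 counts in every library. *Alb*, the hepatocyte product albumin, stood at 99786 to 102972 CPM (counts in 1e+06 counts of the library, after TMM scaling, the trimmed mean of M values, which sets libraries to a common level of most genes; all CPM values are on this scale unless library totals are named) in the healthy group and at 42203 to 51152 CPM in the untreated group, so the labelled tissue was borne out in every library. In whole liver, fewer cells of a type and less RNA per cell cannot be told apart.

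The agent given to the treated mice is shown first, because its seed (bases 2 to 8, in capitals) is what pairs with target transcripts. Mature mmu-miR-22-3p lies at chr11:75463772-75463793 on the plus strand (RefSeq, GRCm38.p6).
mmu-miR-22-3p: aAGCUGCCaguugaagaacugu
The 7 bases that pair with the seed, GGCAGCT, were searched on the transcript strand of the 3′ untranslated region of the canonical transcript of each gene (GENCODE M39). None of the 10 genes held a match, in regions of 121 to 2469 bases. Of 13559 tested genes with such a region, 16.9% held at least 1 match. This says only that these letters are absent from these windows.

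Promoters are shown for the genes that stand at the ends of the resident and lipid-associated classes, *Clec4f* and *Timd4* against *Trem2* and *Gpnmb*, since their TMM-scaled levels lay on opposite sides of the healthy livers in untreated HCC. Each runs from 250 bases before to 50 bases after the start of the gene (RefSeq, GRCm38.p6), printed on the strand of the gene. Capitals mark the PU.1 core GAGGAA, which is bound by a factor that macrophages need to develop, or the AP-1 site TGACTCA, on either strand. *Clec4f* lies at chr6:83656067-83656366 on the minus strand, *Timd4* at chr11:46810549-46810848, *Trem2* at chr17:48346151-48346450 and *Gpnmb* at chr6:49036268-49036567, all on the plus strand.
Clec4f: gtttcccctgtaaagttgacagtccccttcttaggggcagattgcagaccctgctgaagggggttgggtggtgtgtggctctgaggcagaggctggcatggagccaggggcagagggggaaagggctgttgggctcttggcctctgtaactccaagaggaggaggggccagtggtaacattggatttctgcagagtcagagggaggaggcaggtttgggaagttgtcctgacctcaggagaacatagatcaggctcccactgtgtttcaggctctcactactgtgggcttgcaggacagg
Timd4: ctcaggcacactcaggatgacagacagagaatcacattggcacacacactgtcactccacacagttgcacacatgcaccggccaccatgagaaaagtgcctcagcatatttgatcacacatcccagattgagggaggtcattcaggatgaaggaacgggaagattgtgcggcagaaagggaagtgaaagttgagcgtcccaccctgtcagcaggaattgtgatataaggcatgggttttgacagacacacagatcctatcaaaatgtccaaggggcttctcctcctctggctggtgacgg
Trem2: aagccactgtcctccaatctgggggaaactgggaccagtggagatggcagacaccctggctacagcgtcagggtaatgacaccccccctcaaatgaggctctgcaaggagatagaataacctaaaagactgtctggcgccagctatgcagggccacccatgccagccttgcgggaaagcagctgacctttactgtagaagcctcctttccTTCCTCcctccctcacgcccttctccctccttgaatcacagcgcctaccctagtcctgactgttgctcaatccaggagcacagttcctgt
Gpnmb: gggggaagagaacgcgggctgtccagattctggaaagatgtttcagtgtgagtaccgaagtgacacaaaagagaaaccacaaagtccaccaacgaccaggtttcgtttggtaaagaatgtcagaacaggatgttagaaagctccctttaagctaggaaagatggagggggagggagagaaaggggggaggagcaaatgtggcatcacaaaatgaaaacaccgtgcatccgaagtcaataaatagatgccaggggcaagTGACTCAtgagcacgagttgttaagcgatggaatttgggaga
*Trem2* held 1 PU.1 core, read on the opposite strand at bases 211 to 216 of the window, and *Gpnmb* held 1 AP-1 site at bases 259 to 265. *Clec4f* and *Timd4* held neither. Among the 9 genes whose promoter is in the table, 5 held the PU.1 core (*Marco*, *Cd5l*, *Cd68*, *Trem2* and *Vsig4*) and 2 held the AP-1 site (*Gpnmb* and *Cd68*), against 28.3% and 5.2% of all 32851 promoters of this length. The M-box TCATGTG, a motif of the MiT/TFE lysosomal factors, was in none of the 9 and in 3.77% of all promoters. The motifs do not overlap each other in these windows, and a match is a description of the sequence only.

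In GRCm39, by the GENCODE M39 annotation, the *Clec4f* gene (ENSMUSG00000014542.3) spans chr6:83621524-83633169 in 7 exons, *Timd4* (ENSMUSG00000055546.6) chr11:46701620-46735177 in 9 exons, *Trem2* (ENSMUSG00000023992.14) chr17:48653429-48661175 in 5 exons and *Gpnmb* (ENSMUSG00000029816.10) chr6:49013426-49047863 in 11 exons.

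Levels between genes were compared as CPM per kilobase of the canonical transcript, on the TMM scale. In healthy livers, *Clec4f*, a C-type lectin found on Kupffer cells, led with 67.8 ± 7.74 (SD, n = 3). *Cd5l*, a secreted macrophage protein that binds lipids and IgM, followed with 46.3 ± 8.45, *Vsig4*, a complement receptor, with 23.1 ± 2.91 and *Lyz2*, lysozyme, with 16.4 ± 0.239. *Cd68*, a lysosomal glycoprotein, stood at 6.37 ± 0.236, *Timd4*, a phosphatidylserine receptor for dying cells, at 5.85 ± 0.652, *Adgre1*, which encodes the macrophage antigen F4/80, at 4.9 ± 0.212 and *Marco*, a scavenger receptor, at 4.31 ± 0.826. *Trem2*, a lipid-sensing receptor, at 0.359 ± 0.189, and *Gpnmb*, a lysosome-related glycoprotein, at 0.048 ± 0.0186, were the lowest. In this order the neighbours *Cd68* and *Timd4*, and *Adgre1* and *Marco*, overlapped between livers, and the other neighbours did not.

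In untreated HCC the order of means changed, with *Lyz2* above *Vsig4* and *Timd4* below *Adgre1* and *Marco*. *Clec4f* (51.0 ± 7.25 CPM per kilobase), *Cd5l* (47.6 ± 5.46) and *Lyz2* (45.2 ± 4.49) overlapped with each other. *Vsig4* (17.2 ± 3.05), *Cd68* (10.2 ± 1.23) and *Adgre1* (5.87 ± 0.53) followed without overlap. *Marco* (4.4 ± 0.788) and *Timd4* (3.52 ± 0.522) overlapped, as did *Timd4* and *Trem2* (3.15 ± 0.539), while *Gpnmb* stayed lowest at 0.491 ± 0.209. In miR-22-treated HCC the order ran *Clec4f* (68 ± 3.89), *Cd5l* (52.6 ± 1.26), *Lyz2* (47.2 ± 1.59), *Vsig4* (24.6 ± 3.56), *Cd68* (9.86 ± 0.395), *Adgre1* (6.48 ± 0.795), *Timd4* (5.05 ± 1.19), *Marco* (3.9 ± 0.512), *Trem2* (2.6 ± 0.497) and *Gpnmb* (1.3 ± 0.826). Of these neighbours, *Adgre1* with *Timd4* and *Timd4* with *Marco* overlapped between livers, and the others did not.

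**Figure D1:**
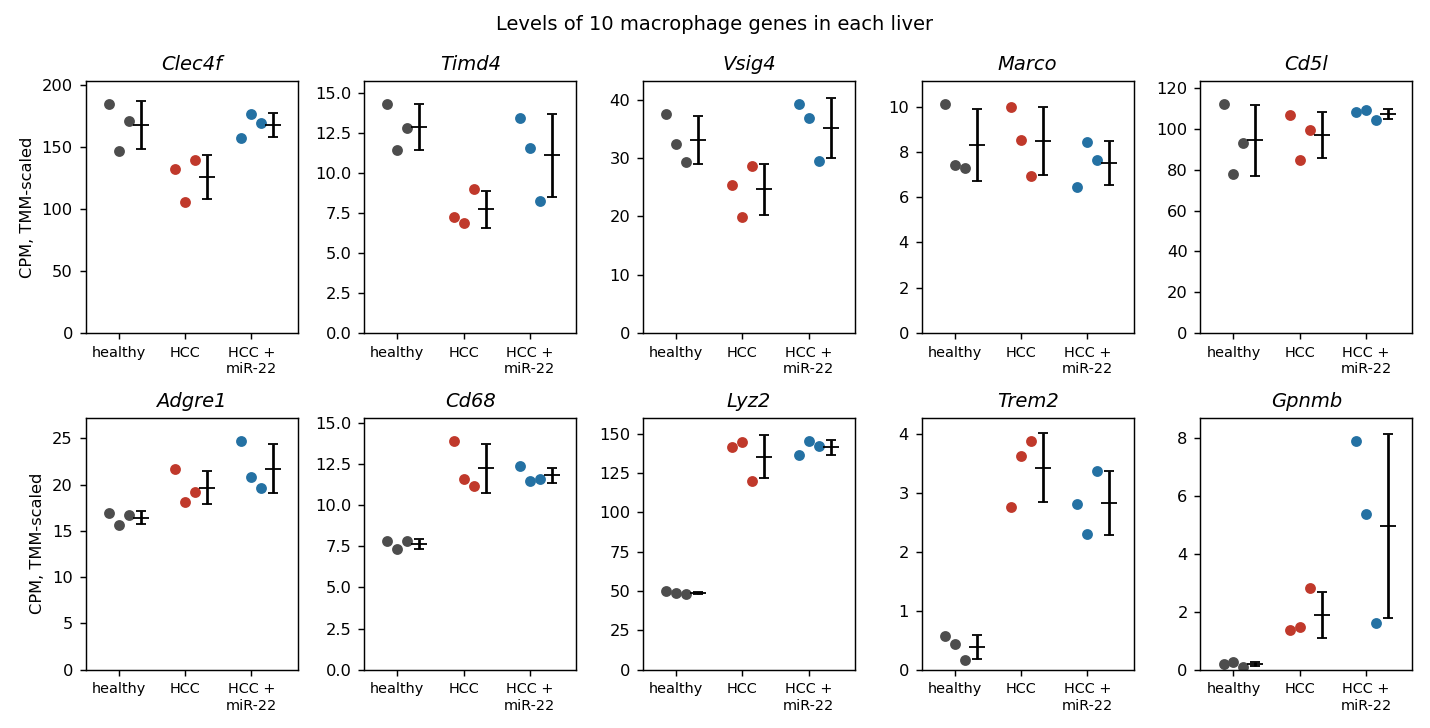
TMM-scaled CPM of each gene (vertical axis, from 0) in each of 3 healthy, 3 untreated HCC and 3 miR-22-treated HCC livers; points are livers, and the bars beside them are mean ± SD. *Trem2* lies between 0.165 and 0.566 CPM in the healthy group and between 2.76 and 3.88 CPM in the untreated group, while the *Gpnmb* values of treated livers spread from 1.62 to 7.89 CPM.

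The first comparison asked how the macrophage genes of the liver differ once it carries tumors. Among the 5 Kupffer genes, *Timd4* was called lower in untreated HCC and none was called higher, while 2 of the 3 general genes and both lipid-associated genes were called higher. A gene was called at an adjusted p under 0.05 (edgeR quasi-likelihood F test, Benjamini-Hochberg over all 15717 tested genes) with a fold change over 1.5. Over all tested genes 22.7% were called higher and 18.1% lower, and 65.3% had livers that did not overlap on the TMM scale, beside 8 of the 10 genes here. With background shares of this size, the counts say little about the 10 genes as a group, and the values of single genes are given instead.

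*Timd4* stood at 14.3, 11.5 and 12.8 CPM in healthy livers 1, 2 and 3, and at 7.26, 6.90 and 9.04 CPM in untreated HCC livers 2, 3 and 4. On this scale the highest tumor liver lay below the lowest healthy liver, while by library totals alone healthy liver 2 (9.92 CPM) lay below untreated HCC liver 4 (10.1 CPM). The change was -0.73 on the log2 scale (SE 0.184, adjusted p = 0.0045), a 39.7% lower level. With replicate numbers fitted as a block it was -0.61 (edgeR, adjusted p = 0.0754) and was not called. *Clec4f* stood at 185, 147 and 171 CPM in healthy livers and at 133, 106 and 140 CPM in untreated HCC. These did not overlap on the TMM scale and overlapped by library totals alone, and the difference of -0.41 (SE 0.12, adjusted p = 0.0109) stayed under the fold threshold, and it was 0.0061 with library totals alone. *Vsig4* behaved like *Clec4f*, with 37.5, 32.4 and 29.3 CPM against 25.4, 19.9 and 28.6 CPM, and a difference of -0.42 (SE 0.149, adjusted p = 0.028).

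The other resident genes gave no such difference. *Marco* stood at 10.1, 7.43 and 7.31 CPM in healthy livers and at 9.98, 8.51 and 6.95 CPM in untreated HCC, a log2 difference of 0.03 with a 95% confidence interval of -0.38 to 0.44. *Cd5l* stood at 112, 77.9 and 93.3 CPM against 107, 85.1 and 99.5 CPM, a log2 difference of 0.04 (-0.23 to 0.31). For both genes the livers of the groups overlapped.

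These directions for Kupffer genes depended on how libraries were scaled. TMM factors were 0.865 to 0.872 for healthy livers and 1.12 to 1.22 for untreated HCC. With library totals alone, the median log2 fold change of all tested genes moved from 0.01 to 0.43, and 38.1% of them were called higher and 9.49% lower. On that scale *Clec4f* differed by 0.0061 (adjusted p = 0.963), *Vsig4* by -0.0082 (adjusted p = 0.961) and *Timd4* by -0.31 (adjusted p = 0.14), none of them called. *Marco* and *Cd5l* were then at 0.46 each, uncalled, and *Adgre1* was called higher at 0.68 (adjusted p = 0.000336).

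**Figure D2:**
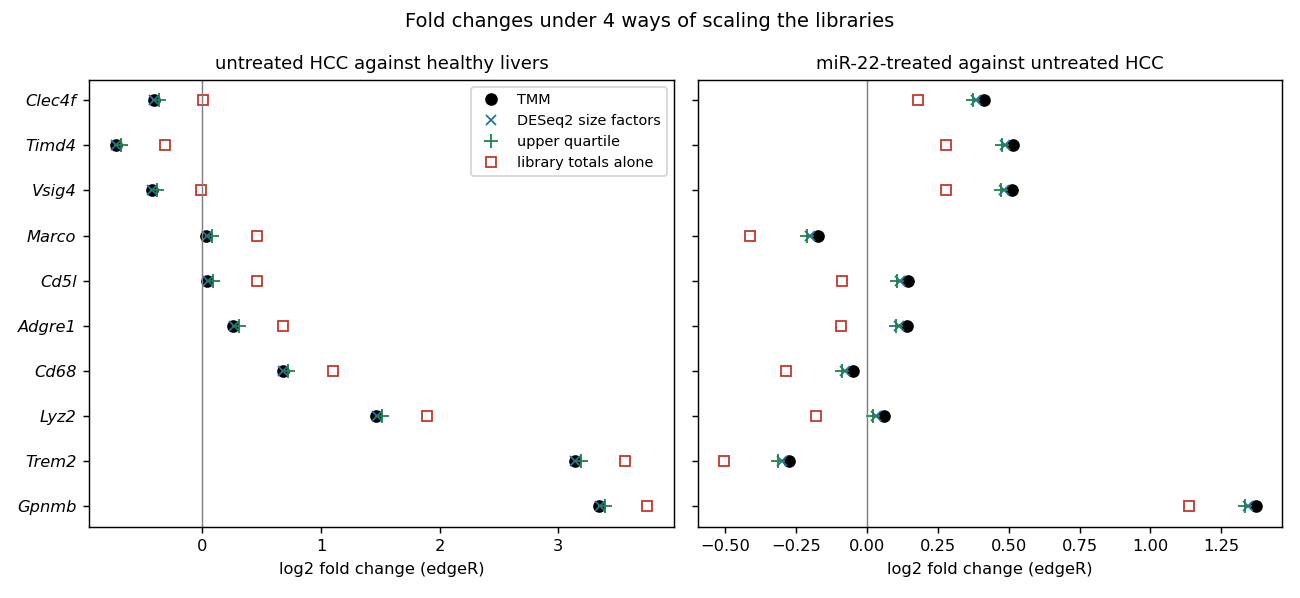
Log2 fold change (edgeR, horizontal axis) of each gene under TMM, DESeq2 size factors, upper-quartile normalization and library totals alone, for untreated HCC against healthy livers (left) and miR-22-treated against untreated HCC (right). Library totals alone move every gene to the right on the left panel and to the left on the right panel, and *Clec4f* then lies at 0.0061 in untreated HCC against healthy livers.

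Of the general macrophage genes, *Cd68* and *Lyz2* rose in untreated HCC. *Adgre1* stood at 17.0, 15.6 and 16.7 CPM in healthy livers and at 21.7, 18.2 and 19.2 CPM in untreated HCC. The livers did not overlap, but the log2 difference of 0.26 (SE 0.118) had an adjusted p of 0.0778. *Cd68* stood at 7.80, 7.31 and 7.80 CPM against 13.9, 11.6 and 11.2 CPM, and rose by 0.68 (SE 0.131, adjusted p = 0.000724). Without untreated HCC replicate 2, which had the highest *Cd68* value, the change was 0.58 and fell under the fold threshold. *Lyz2*, which is shared by macrophages, monocytes and neutrophils, stood at 49.7, 49.0 and 48.3 CPM in healthy livers and at 141, 145 and 120 CPM in untreated HCC. It rose by 1.47 (SE 0.0921, adjusted p = 9.35e-08), a 2.76-fold higher level. Reads of *Lyz2* and its near-identical neighbour *Lyz1*, which held 0 to 11 counts per library, could be exchanged in the quantification.

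*Trem2* and *Gpnmb* rose most of the 10 genes, from levels near the detection limit. *Trem2* had 9, 7 and 3 counts in healthy livers and 59, 81 and 104 counts in untreated HCC. The fold change was 8.83 (95% confidence interval 5.02 to 15.5, adjusted p = 1.51e-05). *Gpnmb* had 3, 4 and 2 counts in healthy livers and 29, 33 and 75 counts in untreated HCC, a 10.2-fold higher level (3.49 to 29.7, adjusted p = 0.00145). No healthy liver overlapped a tumor liver for either gene. Because the healthy groups held 19 and 9 counts in all, the size of each fold is known only within these intervals. Both genes passed the filter on low counts only through the HCC livers, where they were higher, so their ranks among tested genes are descriptions. The log2 fold change of *Trem2* was above 94.9% of all tested genes and that of *Gpnmb* above 95.4%, against 16.9% for *Timd4* and 27.3% for *Clec4f*.

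**Figure D3:**
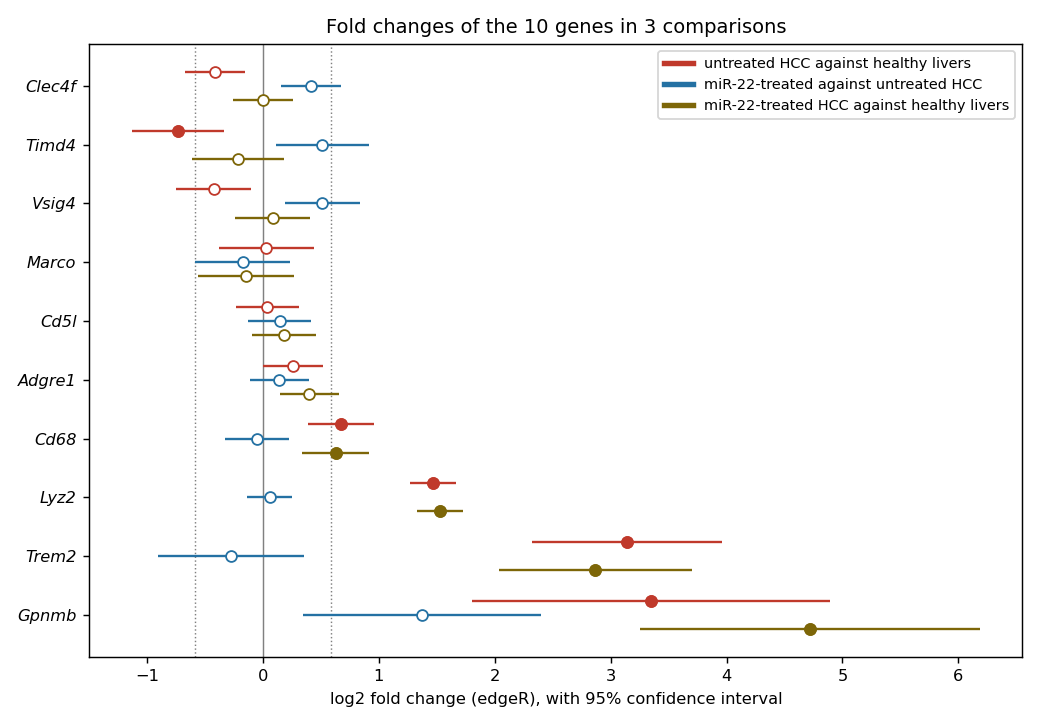
Log2 fold change (edgeR, horizontal axis) with 95% confidence interval for each gene in 3 comparisons (colors); filled points passed both thresholds, open points did not, and dotted lines mark a fold change of 1.5. No point of miR-22-treated against untreated HCC is filled, and *Gpnmb* has the widest interval in each comparison.

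The treatment comparison asked whether miR-22 moved these genes in tumor-bearing liver. None of the 10 genes was called by edgeR, with 8.32% of all tested genes called higher and 5.47% lower. At an unadjusted p under 0.05 there were 4 (*Clec4f*, *Timd4*, *Vsig4* and *Gpnmb*), all higher with treatment. DESeq2 called 1, *Gpnmb*, and limma called 0, and each had the same 4 genes at an unadjusted p under 0.05. Livers of the groups did not overlap for 2 of the 10 genes (*Clec4f* and *Vsig4*), against 39.3% of all tested genes.

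The Kupffer genes *Clec4f*, *Vsig4* and *Timd4* stood higher with treatment without reaching a fold of 1.5. *Clec4f* stood at 158, 177 and 170 CPM in treated livers 2, 3 and 4, against 133, 106 and 140 CPM untreated, a log2 difference of 0.41 (SE 0.12, adjusted p = 0.0257). *Vsig4* stood at 39.3, 36.8 and 29.5 CPM with treatment, a difference of 0.51 (SE 0.149, adjusted p = 0.0259). On the TMM scale both sets of treated livers lay above all untreated ones, and by library totals alone those of *Vsig4* overlapped. *Timd4* stood at 13.4, 11.6 and 8.28 CPM, and treated liver 4 overlapped the untreated range, so that its difference of 0.51 (SE 0.185) had an adjusted p of 0.0616. Without miR-22-treated HCC replicate 4 the *Timd4* difference was 0.69 (adjusted p = 0.00963) and that of *Vsig4* 0.63 (adjusted p = 0.00869), both called. Without untreated HCC replicate 4 they were 0.65 (adjusted p = 0.0408) and 0.64 (adjusted p = 0.0138), also called. Other omissions lowered the differences. Over the 9 omissions of a library, the lowest value was 0.35 for *Timd4*, 0.38 for *Vsig4* and 0.30 for *Clec4f*. The highest adjusted p (edgeR) was 0.232, 0.111 and 0.107 in that order. With library totals alone, where the median of all genes moved to -0.23 and 5.31% of them were called higher and 13.8% lower, the differences of *Clec4f*, *Vsig4* and *Timd4* were 0.18, 0.28 and 0.28, with adjusted p of 0.207, 0.127 and 0.241. The untreated livers are the same in this comparison and the first one, so the 2 sets of values are not independent.

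*Marco* stood at 6.46, 8.42 and 7.66 CPM in treated livers, a log2 difference of -0.17 (95% confidence interval -0.58 to 0.24). *Cd5l* stood at 108, 109 and 105 CPM, a difference of 0.14 (-0.13 to 0.42). Neither resident gene separated treated from untreated livers.

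No general macrophage gene was called with treatment by edgeR. *Adgre1* stood at 24.8, 20.8 and 19.7 CPM, a log2 difference of 0.14 (95% confidence interval -0.11 to 0.40). *Cd68* stood at 12.4, 11.5 and 11.6 CPM, a difference of -0.05 (-0.32 to 0.23), and *Lyz2* at 136, 146 and 142 CPM, a difference of 0.06 (-0.13 to 0.26). The intervals of these 3 genes lie within a fold of 1.5 in either direction. With library totals alone, the differences of *Cd5l* (-0.09), *Adgre1* (-0.09) and *Lyz2* (-0.18) changed sign and stayed uncalled.

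The 2 lipid-associated genes went different ways with treatment, and neither passed with edgeR. *Trem2* had 49, 36 and 71 counts in treated livers, or 2.80, 2.30 and 3.38 CPM, against 2.76, 3.63 and 3.88 CPM untreated, a log2 difference of -0.27 (95% confidence interval -0.90 to 0.36, adjusted p = 0.546). *Gpnmb* had 138, 84 and 34 counts in treated livers, or 7.89, 5.36 and 1.62 CPM, against 1.36, 1.48 and 2.80 CPM untreated. Treated livers 2 and 3 lay above all untreated livers, and treated liver 4 lay among them. The difference of 1.37 (SE 0.473, adjusted p = 0.0525) was called by DESeq2 (1.36, adjusted p = 0.0283) and by edgeR without a filter on low counts (1.37, adjusted p = 0.000163). It was 0.85 without miR-22-treated HCC replicate 2, and it was called at 1.80 (adjusted p = 0.00262) without miR-22-treated HCC replicate 4 and at 1.79 (adjusted p = 0.0329) without untreated HCC replicate 4. A difference between the responses of *Trem2* and *Gpnmb* was not tested.

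The last comparison set treated tumors against the healthy livers that also served in the first comparison. *Cd68*, *Lyz2*, *Trem2* and *Gpnmb* were called higher and none of the 10 genes was called lower, with 16.9% of all tested genes called higher, 7.05% lower and 48.8% not overlapping. *Gpnmb* was 26.3-fold higher (95% confidence interval 9.53 to 72.8, adjusted p = 0.000195) and *Trem2* 7.31-fold (4.1 to 13, adjusted p = 0.000114). *Lyz2* rose by 1.53 on the log2 scale (SE 0.0923, adjusted p = 2.02e-07) and *Cd68* by 0.63 (SE 0.132, adjusted p = 0.00271). The *Cd68* call was lost without miR-22-treated HCC replicate 2 (0.58). The Kupffer genes of treated livers overlapped those of healthy livers, with log2 differences of 0.00 for *Clec4f* (-0.26 to 0.26), -0.22 for *Timd4* (-0.61 to 0.18), 0.09 for *Vsig4* (-0.23 to 0.41), -0.14 for *Marco* (-0.56 to 0.27) and 0.19 for *Cd5l* (-0.09 to 0.46). *Adgre1* did not overlap and differed by 0.40 (adjusted p = 0.0184), under the fold threshold, and was called with library totals alone (0.59, adjusted p = 0.00238), where 21.7% of all genes were called higher and 3.77% lower.

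A ratio within a liver removes the scaling between libraries, so each gene was also divided by *Adgre1*. Per 100 *Adgre1* counts, healthy livers held 1016 ± 74.1 *Clec4f* counts (SD, n = 3), 78.2 ± 5.67 *Timd4* counts and 201 ± 23.5 *Vsig4* counts. In untreated HCC these were 640 ± 76.4, 39.6 ± 6.84 and 125 ± 20.6 counts, with no overlap between livers. In log2 units the ratios were lower by 0.67, 0.99 and 0.69, while those of *Cd68*, *Lyz2*, *Trem2* and *Gpnmb* were higher by 0.41, 1.2, 2.92 and 2.88, also without overlap. *Marco* (-0.22) and *Cd5l* (-0.21) overlapped. The share of all genes that would not overlap in such a ratio was not computed. On the TMM scale 65.3% of all tested genes did not overlap in this comparison. Each non-overlapping ratio had p = 0.1 in a two-sided exact permutation test, the smallest that 3 livers against 3 allow, and an adjusted p of 0.129 over the 9 ratios, so this test could not pass. With the summed C1q genes in place of *Adgre1*, the differences were -1.32 for *Timd4*, -1.02 for *Vsig4*, -0.998 for *Clec4f*, -0.55 for *Marco*, -0.53 for *Cd5l*, 0.88 for *Lyz2* and 0.087 for *Cd68*. With *Csf1r* in its place the *Cd68* difference was 0.51, and each other difference moved by less than the larger of its group SDs. The ratio shows unequal change of the 2 genes and not that *Adgre1* stayed constant.

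With treatment the ratios of *Clec4f*, *Timd4* and *Vsig4* to *Adgre1* were 782 ± 126, 50.8 ± 7.55 and 162 ± 13.9 counts per 100, which lie between the other groups. The *Vsig4* ratio alone did not overlap between treated and untreated livers (log2 difference 0.38, p = 0.1 in the exact permutation test, adjusted p = 0.3). The *Trem2* ratio was 17.7 ± 4.21 counts per 100 untreated and 13.3 ± 3.44 treated, and that of *Gpnmb* 9.76 ± 4.34 and 22.1 ± 12.3, both overlapping. Against healthy livers, treated livers did not overlap in the ratios of *Clec4f* (-0.39), *Timd4* (-0.63), *Marco* (-0.53), *Cd68* (0.23), *Lyz2* (1.13), *Trem2* (2.50) and *Gpnmb* (3.93). On the TMM scale 48.8% of all tested genes did not overlap in that comparison. With *Csf1r* as the reference, *Clec4f* and *Timd4* differed by -0.078 and -0.32 there. The *Cd68* ratio was 0.54 with *Csf1r* and 0.032 with the summed C1q genes.

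**Figure D4:**
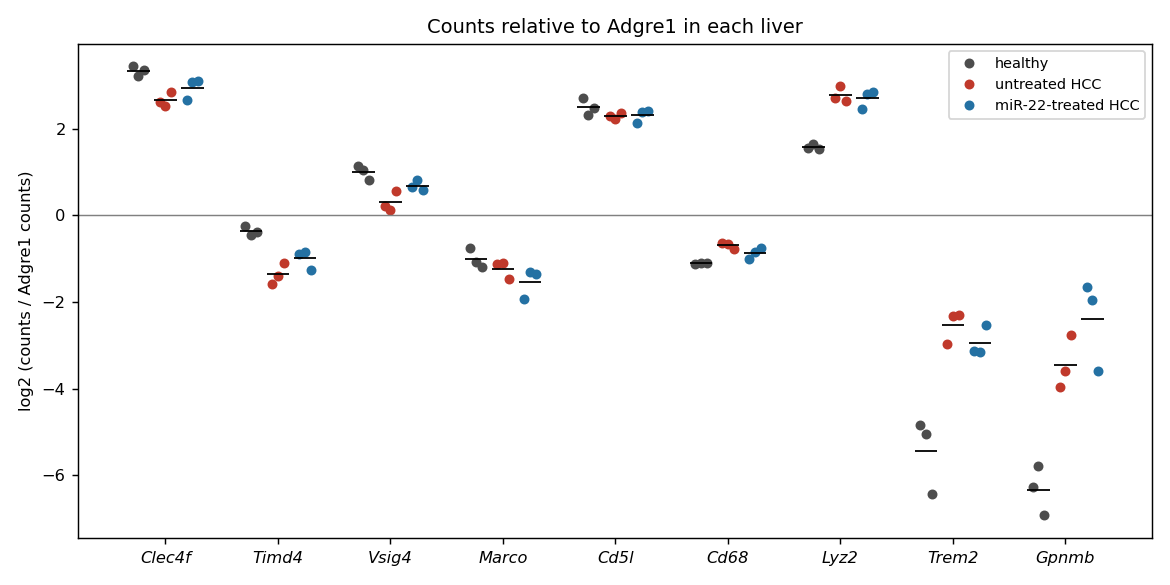
Log2 of each gene's counts over *Adgre1* counts (vertical axis, pseudocount of 0.5 counts on both) in each liver; points are livers and lines are group means. *Clec4f*, *Timd4* and *Vsig4* lie lower in the untreated than in the healthy group without overlap, and *Trem2* and *Gpnmb* lie higher by 2.92 and 2.88.

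Other genes of the same cells were read as counts of called genes, beside the median log2 fold change of all tested genes (0.01 in untreated HCC against healthy livers, 0.00 with treatment). Of all tested genes 22.7% were called higher and 18.1% lower in untreated HCC, and 8.32% and 5.47% with treatment. These shares were 38.1%, 9.49%, 5.31% and 13.8% with library totals alone, and the counts of each list stand beside them as descriptions. Of 12 further resident Kupffer genes, 2 were called higher in untreated HCC (under the share of all genes) and 4 lower, with a median of -0.34. The lower ones were *Cd163*, the hemoglobin scavenger receptor, at -1.58, *Clec1b* at -0.94, the iron exporter *Slc40a1* at -0.92 and the oxysterol receptor *Nr1h3* at -0.82. The higher ones were the complement gene *C6* (1.79) and *Gfra2* (1.37). *C6* is also made by hepatocytes, and *Slc40a1*, *Nr1h3* and *Id3* are also used by other liver cells. With library totals alone the median of the list was 0.07, with 2 genes called higher and 1 lower (*Cd163*). With treatment *Clec1b* (1.02, adjusted p = 0.00416) and *Cd163* (0.74, adjusted p = 0.0332) were called higher and *Id3* (-0.86, adjusted p = 0.0238), a factor that Kupffer cells need for their identity, lower. The median of the list was 0.43 with treatment. It was 0.20 with library totals alone, and the *Cd163* call with treatment was lost.

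Of 14 further lipid-associated macrophage genes, 10 were called higher in untreated HCC and 2 lower, with a median of 2.23. *Spp1*, osteopontin, was higher by 7.43, the tetraspanins *Cd63* and *Cd9* by 4.40 and 2.91, and the macrophage protease *Mmp12* by 4.37. *Atp6v0d2* (-2.29) and *Apoe* (-0.73) were lower. *Spp1*, *Cd9*, *Cd63*, *Plin2*, *Fabp5* and *Apoe* are also made by tumor, ductal or hepatocytic cells, so the list is not specific to macrophages in whole liver. With treatment *Spp1* (-1.20, adjusted p = 0.00414) and *Lpl* (-0.64, adjusted p = 0.0137) were called lower and none was called higher, with a median of -0.29. By library totals alone, 5 were called lower with treatment (*Spp1*, *Lpl*, *Cd63*, *Cd9* and *Lgals3*), with a median of -0.52. *Mmp12* differed by 0.09 with treatment and was not called.

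General macrophage and monocyte genes were mostly higher in untreated HCC. Of 14 further general genes 10 were called higher, led by *Cd14* (5.57), *Ms4a7* (4.47) and *Mpeg1* (1.75), and *Mertk*, a receptor for the uptake of dying cells, was lower by -1.21. *Csf1r*, the receptor that macrophages need to live, differed by 0.15 and was not called. Of 10 monocyte genes 8 were called higher, among them the chemokine receptors *Cx3cr1* (2.99) and *Ccr2* (2.89), and none lower. With treatment *Mertk* was called higher (0.72, adjusted p = 0.00108), and *Cd14* (-0.95, adjusted p = 0.00629), *Cx3cr1* (-1.34, adjusted p = 0.00145) and *Vcan* (-1.05, adjusted p = 0.0296) lower. The *Mertk* call with treatment was lost with library totals alone.

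Signals that feed and place macrophages were measured with the same counts. *Csf2* and *Hcst* of the next lists did not pass the filter on low counts. Of 17 tested growth, recruitment and identity factors, 9 were called higher in untreated HCC and 2 lower, the latter under the share of all genes. The ligands *Ccl2* (5.29), *Cx3cl1* (5.00) and *Il34* (3.64) were among the higher ones, while *Csf1*, the main macrophage growth factor, differed by 0.04. *Nr1h3* was among the lower ones, at -0.82. With treatment 1 gene of the list was called higher and 2 lower (*Cx3cr1* and *Id3*, at the values above). With library totals alone 1 of the list was called higher and 6 lower.

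Partners of TREM2 and TIMD4 were counted in the same way. Of 13 tested, 8 were called higher in untreated HCC and 3 lower, beside 22.7% and 18.1% of all tested genes. *Tyrobp*, the adaptor through which TREM2 signals, was higher by 0.97, its kinase *Syk* by 0.71, and the bridging proteins *Mfge8* and *Gas6*, which tie dying cells to macrophages, by 3.18 and 2.16. *Mertk* (-1.21), *Timd2* (-1.16) and the TREM2 ligand *Apoe* (-0.73) were lower. With treatment *Timd2* (0.80, adjusted p = 0.000825) and *Mertk* were called higher, and *Clu* (-0.91, adjusted p = 0.00369) and *Mfge8* (-0.63, adjusted p = 0.00768) lower. Scaled by library totals alone, 0 were called higher with treatment and 4 lower (*Clu*, *Mfge8*, *Gas6* and *Plcg2*). *Tyrobp* differed by -0.02 with treatment.

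Of 13 scavenger receptors, *Marco* and *Cd5l* among them, 5 were called higher in untreated HCC (*Scara5*, *Scara3*, *Olr1*, *Cd36* and *Scarb1*) and 4 lower (*Cd163*, *Mrc1*, *Colec12* and *Stab2*). *Mrc1*, the mannose receptor of Kupffer and sinusoidal endothelial cells, was lower by -0.81. *Cd36*, a fatty acid and oxidized lipid receptor, was higher by 2.73. With treatment *Cd163* was called higher and *Scara3* (-1.29, adjusted p = 0.0139) lower. Under library totals alone, 1 receptor was called lower in untreated HCC (*Cd163*), and with treatment 0 were called higher and 3 lower (*Scara5*, *Olr1* and *Scara3*), while the median with treatment turned from 0.14 to -0.09.

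**Figure D5:**
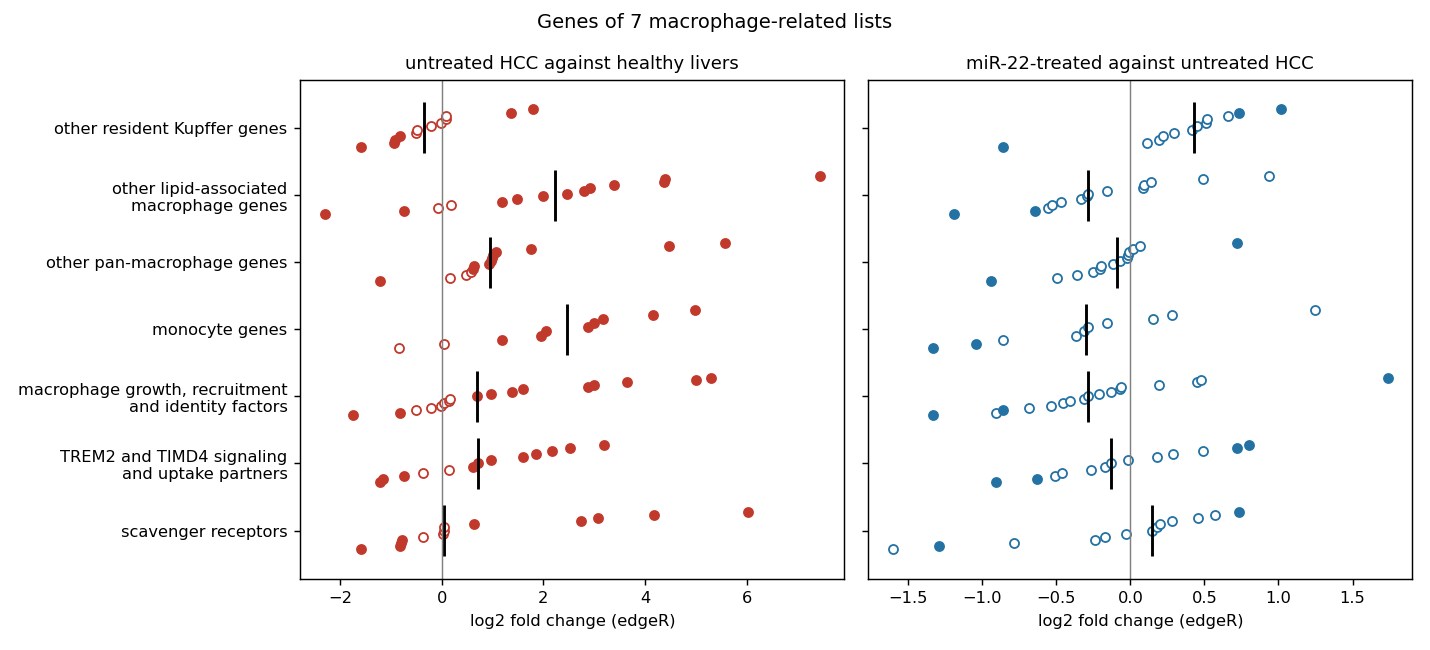
Log2 fold change (edgeR, horizontal axis) of each tested gene of 7 macrophage-related lists, for untreated HCC against healthy livers (left) and miR-22-treated against untreated HCC (right), which have different scales. Filled points passed both thresholds and black bars are list medians, such as 2.23 for lipid-associated genes on the left and 0.43 for Kupffer genes on the right.

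Markers of other cells moved along with these genes. Summed CPM of 10 hepatocyte markers was 131445 to 136635 (healthy), 50615 to 64109 (untreated) and 78251 to 96776 (treated), and all 10 were called lower in untreated HCC and 7 higher with treatment. Of 10 sinusoidal endothelial markers, 7 were called lower and 1 higher (*Flt4*, by 1.56) in untreated HCC, and 3 were called higher with treatment (*Clec4g*, *Oit3* and *Dnase1l3*). With library totals alone 2 were called lower (*Dnase1l3* and *Clec4g*) and 2 higher (*Flt4* and *Lyve1*) in untreated HCC, and with treatment 1 was called higher (*Clec4g*) and 1 lower (*Flt4*). The summed CPM of the list was 557 to 668, 373 to 493 and 486 to 587 in healthy, untreated and treated livers. Proliferation markers, 8 of 8 called higher in untreated HCC, summed to 10.4 to 16.9, 178 to 224 and 112 to 162 CPM. The 5 tested neutrophil markers, cells that also carry *Lyz2*, were all called higher in untreated HCC and none was called with treatment. With the 5 that did not pass the filter on low counts included, the 10 neutrophil markers summed to 1.89 to 4.59, 17.9 to 24.3 and 18.0 to 27.3 CPM. The part of these cells in the values of the 10 genes was not tested.

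The remaining lists moved less evenly. Ductal markers were called higher for 6 of 7 in untreated HCC and lower for 4 of 7 with treatment, among them *Epcam*, *Sox9* and *Cftr*. The latter count was 6 with library totals alone. Stellate cell markers were called higher for 5 of 10 (*Col1a1*, *Col3a1*, *Acta2*, *Pdgfrb* and *Rgs5*) and lower for 2 (*Lrat* and *Dcn*) in untreated HCC. With treatment *Col1a1* (-0.94) was called lower and *Dcn* (0.71) and *Lrat* higher, and by library totals alone 6 were called lower and 1 higher (*Lrat*). Lymphoid lists had few calls, with *Cd4* the 1 T or NK cell marker of 9 called higher in untreated HCC, and *Jchain* higher among 7 B and plasma cell markers. Of 8 dendritic cell markers *Bst2*, *Flt3* and *Cd209a* were higher and *Zbtb46* lower. With treatment *Nkg7* was the T or NK cell marker and *Siglech* the dendritic cell marker called, both higher. No marker of these lists was at 0 in every library.

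Genes with the pattern most like a member over the 9 livers were listed by Pearson correlation of log2 CPM, as a description of livers that share group and composition. For *Clec4f* these were *Colec11* (r = 0.989), *Aifm2* (0.982), *Serpina3c* (0.973), *Pmpcb* (0.963) and *Egln2* (0.958). For *Timd4* they were *Hsd17b2* (0.976), *Tmem250-ps* (0.974), *Lilr4b* (0.974), *Gpr146* (0.972) and *Fmo4* (0.971). For *Trem2* they were *Trip13* (0.994), *B4galt2* (0.991), *Cd34* (0.991), *4632428C04Rik* (0.991) and *S100a4* (0.989), and for *Gpnmb* *Cd86* (0.971), *Stat3* (0.959), *Trem1* (0.956), *Pnpla3* (0.951) and *Wdfy1* (0.949).

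Among the 10 genes themselves, *Cd68* and *Lyz2* (0.962), *Trem2* and *Lyz2* (0.948), *Timd4* and *Vsig4* (0.865) and *Clec4f* and *Vsig4* (0.837) had high values of r over the 9 livers. Further pairs were as high, among them *Trem2* and *Cd68* (0.899), *Gpnmb* and *Lyz2* (0.882), *Gpnmb* and *Adgre1* (0.869) and *Adgre1* and *Cd68* (0.854). *Marco* had no r above 0.277 with any other of the 10, and *Timd4* and *Trem2* had an r of -0.64. *Gpnmb* and *Trem2*, the lipid-associated pair, had an r of 0.845, with the treated livers apart as described.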

How the data were processed

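RNA sequencing of 9 whole livers was analysed from the raw counts per gene that the authors deposited. Per the study's methods, TRIzol RNA was made into non-directional paired-end libraries, the authors quantified reads with Salmon, imported them with tximport on GRCm39 and tested with DESeq2 1.18. Libraries carry no strand, so antisense reads cannot be told apart. Their normalized counts were not used. Of the 55401 genes, 15717 passed filterByExpr. Depth per group was 18258660 to 20964551 (healthy), 18293676 to 23908392 (untreated HCC) and 16664659 to 20459853 counts (treated). No library pair agreed within sampling noise.

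Groups and replicate numbers came from the sample titles. The sources used here do not say that numbers mark a shared litter or batch, and p-values measure only the spread between these libraries. Fits used edgeR 4.0.16 in R 4.3.3 (TMM, quasi-likelihood F test, 3 groups in 1 fit), with DESeq2 1.42.0 and limma 3.58.1 as alternatives, beside other scalings, filters, thresholds, a replicate block and each library left out. The fit was tested on simulated data. Ratios used a pseudocount of 0.5 counts. Sequences and figures were handled in Python with matplotlib.

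The 10 genes, the lists and the tests were chosen with earlier results of these data known. All 10 genes are named in every comparison, and of each other list up to 3 called genes with the smallest p, plus those needed to name a count of 5 or fewer, except a few list genes that are not reported here. Further list genes named in the text (*Csf1r*, *Csf1*, *Ccl2*, *Ccr2*, *Mmp12*, *Cd9*, *Tyrobp*, *Syk* and *Mrc1*) were added for their role after values were seen.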

Additional observations from a re-analysis of the deposited data

How the results depend on the processing

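No called change of the 10 genes turned its sign under the 18 or 19 alternatives run for each gene and comparison. With a minimum of 10 counts in every library, *Trem2* and *Gpnmb* were not tested, which left 3 called genes in untreated HCC and 2 in treated HCC against healthy livers. For treated against untreated HCC, where none was called, DESeq2 and edgeR without a filter on low counts each called 1 (*Gpnmb*), dropping the fold threshold called 2 (*Clec4f* and *Vsig4*), and leaving out a library called 0 to 3. Without a fold threshold 3777 of all genes were called in that comparison and 5732 in treated HCC against healthy livers, instead of 2167 and 3772. Leaving out a library gave 1433 to 2660 genes with treatment, the lowest without miR-22-treated HCC replicate 3.

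Signs turned for uncalled differences. With library totals alone, an alternative added after the data were seen, the log2 differences were 0.0061 for *Clec4f* in untreated HCC against healthy livers (-0.41 with TMM), -0.089 for *Cd5l*, -0.092 for *Adgre1* and -0.18 for *Lyz2* with treatment, and 0.044 for *Marco* in treated HCC against healthy livers. In that last comparison *Clec4f* was at -0.025 with DESeq2, -0.023 with its size factors and -0.0021 with only the 2 groups fitted. Leaving out a library moved *Marco* between -0.10 and 0.19 and *Cd5l* between -0.088 and 0.17 in untreated HCC against healthy livers. With treatment it moved *Cd68* between -0.11 and 0.053 and *Lyz2* between -0.018 and 0.11. In treated HCC against healthy livers it moved *Clec4f* between -0.094 and 0.062, *Vsig4* between -0.011 and 0.20 and *Marco* between -0.24 and 0.0097. The cause was not tested.

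The replicate numbers are shared between groups, but treated and untreated livers of the same number correlated at -0.235 to -0.121 in their deviations from the group means, and those of different number at -0.0136 to 0.131, so the numbers were not taken as pairs. With the number as a replicate block, 4 of the 10 genes were called in untreated HCC against healthy livers (*Timd4* at -0.61, adjusted p = 0.0754, was not), 0 with treatment and 4 in treated HCC against healthy livers, where *Marco* was at 0.092, uncalled. All genes called in the block fit were 5863, 1745 and 3044.

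Depth limits *Trem2* and *Gpnmb* most, with 2 to 9 counts per healthy library.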
